A study of Mus musculus with 9 samples.

Results

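Cells sense oxygen through the HIF pathway, and 10 genes of it were followed here in microglia, the brain's own macrophages, of wild type, FAD and FAD DKO mice. They are the HIF subunits Hif1a, Epas1 and Arnt, the prolyl hydroxylases Egln1, Egln2 and Egln3, the ubiquitin ligase subunit Vhl, and the targets Vegfa, Flt1 and Bnip3. The members were chosen by name, with earlier results of these data known. Each is represented by the brightest probe set that carries its symbol alone. All 10 were measured, among 22180 genes with such a probe set. Each genotype was measured on 3 arrays, 9 in all, and the deposited values are log2 signals that RMA, a summary of probe brightness named in the submitters' processing notes, gives for each probe set.

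The mice were C57Bl/6 females of 24-28 weeks. Each received 8 mg tamoxifen at 6 weeks of age, wild type mice included. FAD mice carry the 5X familial Alzheimer's disease background together with loxP-flanked alleles of Hdac1 and Hdac2 (FAD Hdac1/2fl/fl), which are class I histone deacetylases. FAD DKO mice have in addition Cx3cr1CreERT2, a tamoxifen-dependent Cre expressed from the fractalkine receptor gene, which is active in microglia and in other Cx3cr1-expressing macrophages. The labels give no floxed allele for wild type and do not say whether those mice carry one or are littermates, so differences between FAD and wild type may hold the floxed alleles as well as the transgenes. FAD DKO differs from FAD in the Cre allele as well as in the deletion; these cannot be told apart. Whether the arrays of a genotype hold RNA of different animals is not in the labels; p-values therefore cover the spread between these samples only, and that spread may be technical.

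HIF is a transcription factor made of an oxygen-regulated alpha subunit (HIF-1 alpha, from Hif1a, or HIF-2 alpha, from Epas1) and the constant partner ARNT. When oxygen is present the EGLN enzymes hydroxylate prolines of the alpha subunit, VHL binds the hydroxylated form, and the subunit is degraded. When it is not, the subunit survives and switches on genes of glycolysis, vessel growth and mitophagy, among them the gene of the hydroxylase EGLN3 itself. This control acts on protein, which these arrays do not measure. Flt1 encodes VEGF receptor 1, which binds the ligand made from Vegfa and is known from endothelial cells, monocytes and macrophages.

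Microglia markers were high on every array, with Cx3cr1, P2ry12, Tmem119 and Csf1r between 8.98 and 12.27 on the log2 scale against a median of 5.35 over all probe sets. Cx3cr1 was at -0.33 in FAD DKO against wild type and -0.25 against FAD, and P2ry12 at -0.18 and -0.12, each without overlap and without passing. Tmem119 was at 0.044 and 0.29 in the same 2 comparisons and Csf1r at -0.050 and 0.015, all with overlap. Of 14 measured microglia genes 13 lay below 0 in FAD against wild type (median -0.086). In FAD DKO 4 were lower than in wild type at an unadjusted p under 0.05 (4.19% of all genes were). In FAD DKO against FAD 8 lay above 0 and 6 below (median 0.025). There 2 were higher and 1 lower at an unadjusted p under 0.05 (3.69% and 4.41% of all genes). The part of these markers in the members' differences was not tested. The 4 defining endothelial markers lay between 3.89 and 6.77 and the mural markers Pdgfrb and Rgs5 between 4.09 and 5.11. Hdac1 was lower in FAD DKO than in FAD by 0.56 on the log2 scale and Hdac2 by 0.68, and each FAD DKO array lay below each FAD array for both. Neither gene passed the limma test over all genes (adjusted p = 0.376 and 0.159), and a probe outside the deleted exons would not check the deletion. The median standard error of a difference between genotypes was 0.104 on the log2 scale, and the number of arrays limits the precision.

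HIF binds a core motif, which was searched as ACGTG and as GCGTG on both strands of the promoter sequences that RefSeq gives for build GRCm38.p6, each with 250 bases before and 50 after the annotated start. Of the 10 members, 9 have a promoter in that table; Epas1 has none listed. At least 1 match was found for 8 of these 9 genes, in 9 of their 11 promoters, and none for Vhl. Over all 32851 promoters of this length, 43.8% hold a match to either motif, 19.6% to ACGTG and 32.4% to GCGTG. Promoters are shown for the 4 members with the lowest p-values against wild type, in lower case from 5′ to 3′ along the gene, with every match in capitals. A match on the opposite strand reads CACGT or CACGC here, and CACGTG, which is its own reverse complement, counts as 1 match to ACGTG on each strand.
Egln3: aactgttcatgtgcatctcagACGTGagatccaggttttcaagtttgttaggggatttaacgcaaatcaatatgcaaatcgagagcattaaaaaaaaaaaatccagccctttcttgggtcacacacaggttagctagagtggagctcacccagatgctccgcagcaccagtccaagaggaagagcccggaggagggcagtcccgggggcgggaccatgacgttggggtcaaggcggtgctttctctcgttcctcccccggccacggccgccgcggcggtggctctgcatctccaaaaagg
Flt1: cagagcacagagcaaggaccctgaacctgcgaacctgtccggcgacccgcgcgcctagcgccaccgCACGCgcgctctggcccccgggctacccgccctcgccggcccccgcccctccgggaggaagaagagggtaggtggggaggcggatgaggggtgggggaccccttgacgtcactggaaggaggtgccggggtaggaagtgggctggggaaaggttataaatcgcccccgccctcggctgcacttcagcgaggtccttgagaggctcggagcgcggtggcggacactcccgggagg
Hif1a: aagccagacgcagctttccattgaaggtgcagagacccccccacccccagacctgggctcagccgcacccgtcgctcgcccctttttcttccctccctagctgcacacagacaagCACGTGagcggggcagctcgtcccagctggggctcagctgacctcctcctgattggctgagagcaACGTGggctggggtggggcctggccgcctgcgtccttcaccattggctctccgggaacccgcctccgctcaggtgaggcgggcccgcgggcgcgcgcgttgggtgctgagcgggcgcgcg
Bnip3: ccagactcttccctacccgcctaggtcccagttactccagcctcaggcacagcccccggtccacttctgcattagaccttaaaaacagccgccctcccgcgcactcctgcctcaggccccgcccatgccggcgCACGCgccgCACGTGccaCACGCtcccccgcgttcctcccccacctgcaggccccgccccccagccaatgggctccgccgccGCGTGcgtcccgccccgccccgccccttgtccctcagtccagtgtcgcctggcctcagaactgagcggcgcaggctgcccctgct
The Egln3 promoter (chr12:54203825-54204124, minus strand) holds 1 match to ACGTG, at position -229 from the start. The Flt1 promoter (chr5:147725962-147726261, minus strand) holds 1 match to GCGTG, on the opposite strand at -184. The Hif1a promoter (chr12:73907617-73907916, plus strand) holds 3 matches to ACGTG, a pair of them the same CACGTG at -135. The Bnip3 promoter (chr7:138909457-138909756, minus strand) holds 5 matches, 2 to ACGTG and 3 to GCGTG, a number that 1.66% of all promoters reach. Of the members not shown, Egln2 has more, with 6 matches in 1 promoter (0.694% of all promoters reach this) and 1 in another. Egln1 has 2. The promoter of Arnt, like those of Egln3 and Flt1, holds 1 match. Whether the number of matches goes with the differences between genotypes was not tested. The matches are letters in a window near the annotated start, not measured binding sites.

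The clearest differences were in Egln3 and Flt1, which were lowest in wild type, higher in FAD and highest in FAD DKO. Both passed the test in FAD DKO against wild type, where Egln3 rose by 1.71 on the log2 scale and Flt1 by 1.26. Hif1a and Bnip3 were higher in both FAD genotypes than in wild type without passing. For Epas1, Arnt, Egln1, Egln2, Vhl and Vegfa every interval of a difference between genotypes included 0.

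**Figure D1:**
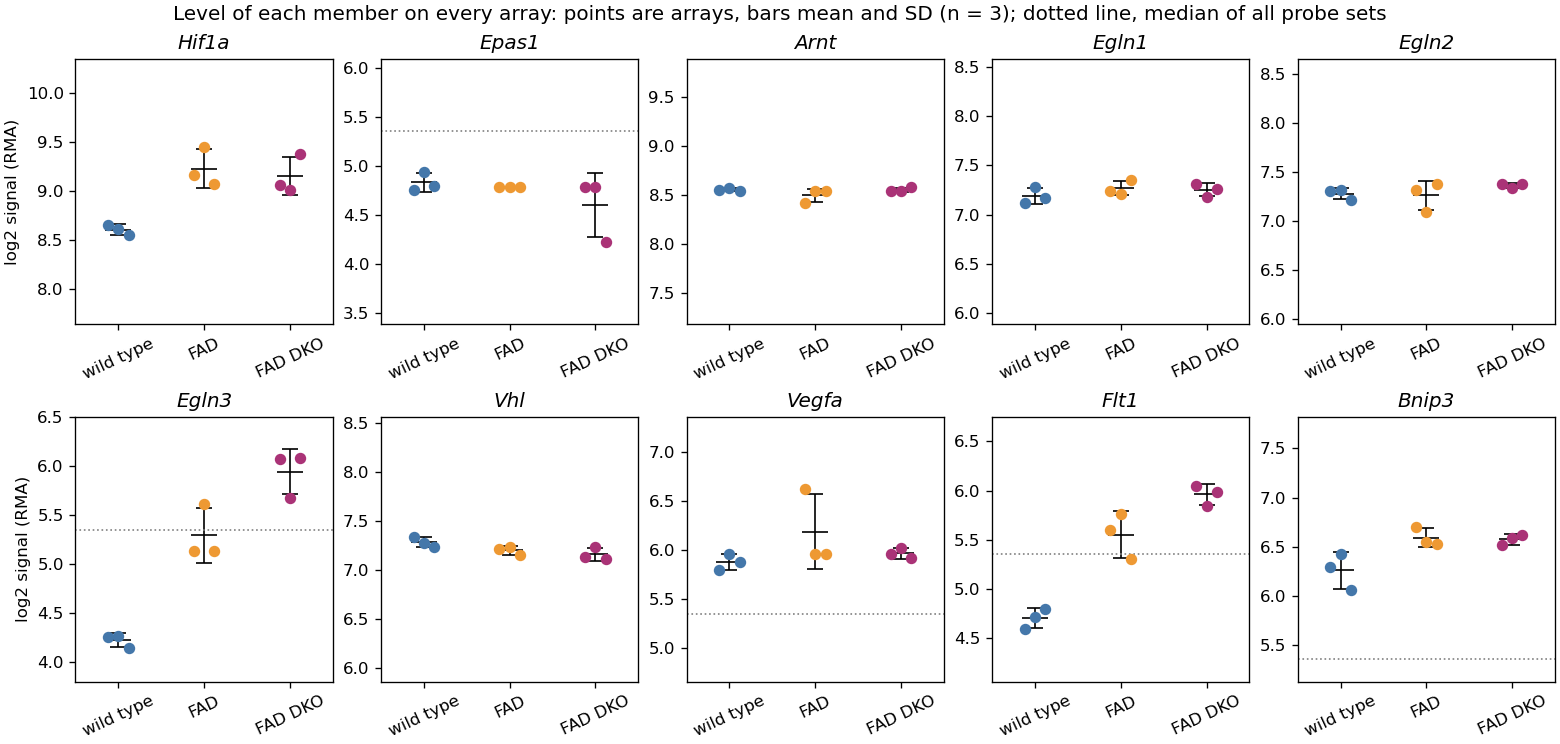
Level of each of the 10 members on every array, as deposited log2 signal, by genotype. Points are arrays, black bars the mean and SD of 3 arrays, and the dotted line the median of all probe sets (5.35); every panel spans the same number of log2 units. For Egln3 and Flt1 the genotypes do not overlap, and each steps up from wild type to FAD to FAD DKO.

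Among the HIF subunits, Hif1a had the largest differences from wild type, and none of them passed. Wild type arrays read 8.66, 8.62 and 8.55 (log2), FAD arrays 9.16, 9.46 and 9.07, and FAD DKO arrays 9.07, 9.02 and 9.38. Every array of both FAD genotypes lay above every wild type array, and the FAD genotypes overlapped each other. FAD was 0.62 higher than wild type (SE 0.123, a 1.54-fold higher signal, limma adjusted p = 0.192), and FAD DKO was 0.54 higher (SE 0.123, adjusted p = 0.188). Between FAD DKO and FAD the difference was -0.08, with a 95% interval from -0.35 to 0.20. A second, dimmer probe set of Hif1a was higher by 0.51 for FAD and 0.44 for FAD DKO against wild type in a fit of every probe set, with a larger standard error (0.196 beside 0.129 for the brighter one there).

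Arnt, the constant partner, was the tightest member. Wild type arrays read 8.55, 8.57 and 8.54, FAD arrays 8.42, 8.54 and 8.54, and FAD DKO arrays 8.55, 8.54 and 8.58. Against wild type the differences were -0.06 for FAD (95% interval -0.20 to 0.08) and -0.0012 for FAD DKO (-0.14 to 0.14). All 3 FAD arrays lay below all 3 wild type arrays, by a margin far smaller than the spread of FAD itself.

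Epas1, the alpha subunit best known from endothelium, was dim in every genotype. Wild type arrays read 4.76, 4.94 and 4.80, each FAD array 4.79, and FAD DKO arrays 4.79, 4.79 and 4.22. All of these lie below the median of all probe sets. The value 4.79 is equal to the last digit on 5 arrays, all 3 FAD arrays among them, and 7.14% of all genes have a value shared by at least 5 arrays. The interval of the difference ran from -0.37 to 0.28 for FAD and from -0.56 to 0.09 for FAD DKO, both against wild type. Without FAD DKO replicate 3 the difference of FAD DKO from wild type was -0.046, in place of -0.23.

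Among the prolyl hydroxylases, Egln3, the member most strongly induced by low oxygen, stood apart from its relatives. Wild type arrays read 4.26, 4.27 and 4.15, FAD arrays 5.13, 5.62 and 5.13, and FAD DKO arrays 6.07, 5.68 and 6.08. No genotype overlapped another, and the lowest FAD DKO array lay just above the highest FAD array. Means were 4.23 ± 0.0685, 5.30 ± 0.278 and 5.94 ± 0.23 (SD, n = 3).

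In FAD DKO against wild type Egln3 rose by 1.71 (SE 0.152, 95% interval 1.37 to 2.06), a 3.28-fold higher signal, with a limma adjusted p = 0.0081. It had the third lowest p-value of all genes in that comparison (rank 3 of 22180). FAD against wild type gave 1.07 (SE 0.152, a 2.09-fold higher signal, adjusted p = 0.0647). FAD DKO against FAD gave 0.65 (95% interval 0.30 to 0.99, adjusted p = 0.3). The wild type level lies well below the median of all probe sets (5.35), and the FAD mean of 5.30 also lies below it. How far these levels stand above background was not analysed here, so the sizes of the differences are uncertain.

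Egln1, the main hydroxylase of HIF-1 alpha at normal oxygen, lay between 7.11 and 7.35 on all 9 arrays. Its genotypes overlapped in each comparison, with means of 7.19 ± 0.0832 for wild type, 7.27 ± 0.0719 for FAD and 7.25 ± 0.0661 for FAD DKO (SD, n = 3). The 95% interval of the difference from wild type was -0.09 to 0.25 for FAD and -0.10 to 0.23 for FAD DKO. Egln2, the third relative, lay between 7.10 and 7.38, with intervals of -0.20 to 0.17 for FAD and -0.10 to 0.27 for FAD DKO. These intervals leave out differences as large as that of Egln3.

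Vhl, whose product targets the hydroxylated alpha subunits for destruction, gave 7.34, 7.28 and 7.24 on wild type arrays, 7.21, 7.24 and 7.15 on FAD arrays and 7.13, 7.24 and 7.11 on FAD DKO arrays. The genotypes overlapped. FAD DKO differed from wild type by -0.12 (95% interval -0.27 to 0.03, adjusted p = 0.688) and FAD by -0.08 (-0.23 to 0.07, adjusted p = 0.765).

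Among the targets, Flt1 followed the order of Egln3. Its wild type arrays read 4.59, 4.72 and 4.79, its FAD arrays 5.60, 5.76 and 5.30, and its FAD DKO arrays 6.05, 5.85 and 5.99. No genotype overlapped another here either. Group means were 4.70 ± 0.102, 5.55 ± 0.235 and 5.96 ± 0.104 (SD, n = 3).

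FAD DKO exceeded wild type by 1.26 (SE 0.12, 95% interval 0.99 to 1.53), a 2.4-fold higher signal, with a limma adjusted p = 0.00872 and rank 6 of 22180 by p-value. FAD exceeded wild type by 0.85 (SE 0.12, a 1.81-fold higher signal, adjusted p = 0.0647). FAD DKO exceeded FAD by 0.41 (95% interval 0.14 to 0.68, adjusted p = 0.407). The wild type level of Flt1 also lies below the median of all probe sets. Genes that step up from wild type to FAD to FAD DKO with no overlap number 33 of 22180 (0.149%), a pattern counted after the values of Egln3 and Flt1 had been seen; these are the 2 members that show it.

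Vegfa, the ligand of Flt1, did not show this order without overlap. Its wild type arrays read 5.80, 5.97 and 5.88, its FAD arrays 6.63, 5.97 and 5.97, and its FAD DKO arrays 5.96, 6.02 and 5.92. FAD replicate 1 stood alone, and the other 8 arrays lay within 5.80 and 6.02. FAD differed from wild type by 0.30 (95% interval -0.06 to 0.67, adjusted p = 0.667), and by 0.083 without FAD replicate 1. FAD DKO differed from wild type by 0.08 (-0.28 to 0.45).

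Bnip3, a mitophagy receptor of the outer mitochondrial membrane and a classical HIF target, gave 6.29, 6.43 and 6.06 on wild type arrays, 6.70, 6.55 and 6.53 on FAD arrays and 6.51, 6.59 and 6.62 on FAD DKO arrays. As with Hif1a, both FAD genotypes lay above wild type on every array and overlapped each other. FAD was 0.33 higher than wild type (SE 0.0998, adjusted p = 0.463) and FAD DKO 0.31 higher (SE 0.0998, adjusted p = 0.414). Between FAD DKO and FAD the difference was -0.02 (95% interval -0.24 to 0.21).

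**Figure D2:**
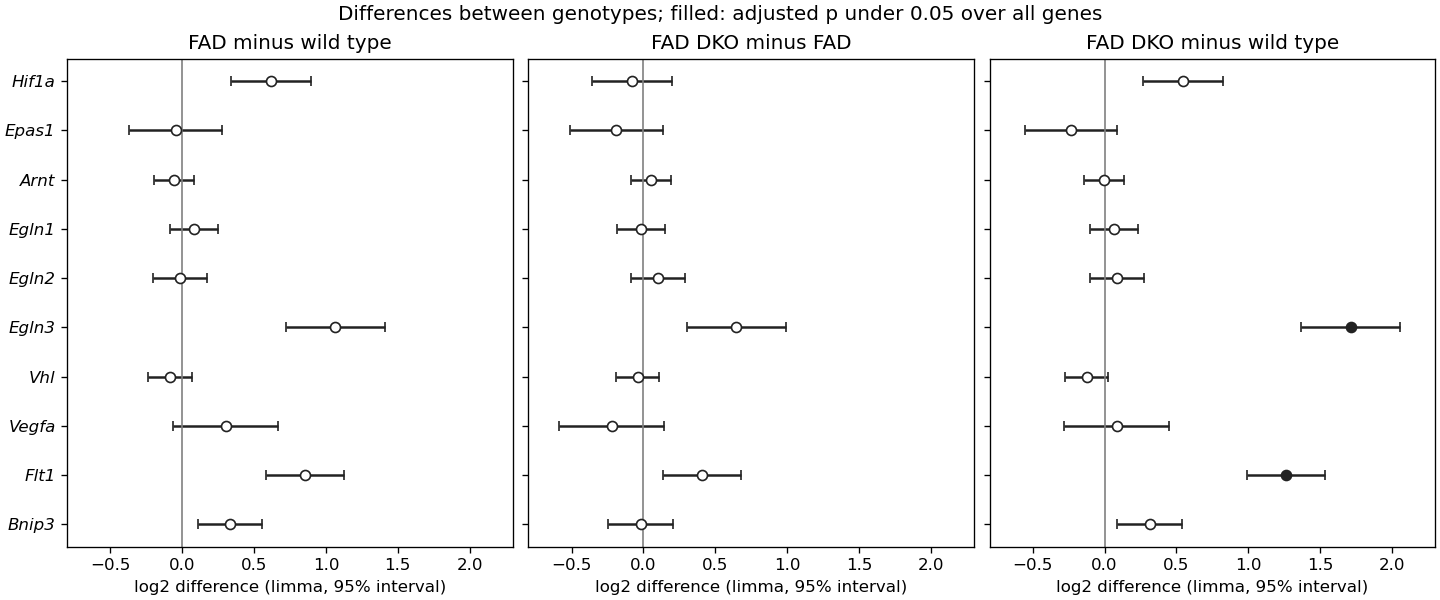
Differences between genotypes for each member on the log2 scale (horizontal axis) from limma, with 95% intervals over 3 arrays per genotype; filled points passed an adjusted p under 0.05 over all genes. Egln3 and Flt1 are filled in FAD DKO minus wild type, at 1.71 and 1.26, and the other points are open.

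Setting FAD beside wild type addresses how microglia of the disease model differ while Hdac1 and Hdac2 are in place. In limma 0 of 10 members passed, where 0.0406% of all genes did (0.0316% upward), and 4 had an unadjusted p under 0.05, where 8.43% of all genes did (4.41% higher and 4.02% lower). These 4, Flt1, Egln3, Hif1a and Bnip3, were higher in FAD and are also the members that lay above wild type without overlap (4 of 10, where 6.37% of all genes did); Arnt was the 1 member below without overlap (5.46% of all genes), so that 5 members in all did not overlap, where 11.8% of all genes did not. The median over the members was 0.19, beside -0.0068 over all genes. The members were chosen with earlier results of these data known. Their counts beside the shares of all genes, in this and the other comparisons, are therefore descriptive and no test of the group. With a trended and robust variance model Flt1 and Egln3 passed (adjusted p = 0.034 each), as they did with array weights (0.0364 each), and Flt1 passed without FAD replicate 3 (0.034). With probe sets below the median of all left out, Flt1 passed (0.0207) and Egln3 was not tested.

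FAD DKO beside FAD addresses what the loss of both deacetylases adds. In limma 0 of 10 members passed (0.0225% of all genes did, 0% upward), and 2 had an unadjusted p under 0.05 (8.1% of all genes, 3.69% higher and 4.41% lower), namely Egln3 and Flt1, both higher in FAD DKO. These were also the 2 members whose FAD DKO arrays lay above the FAD arrays without overlap (5.38% of all genes did, 6.5% lay below, 11.9% either way). The median over the members was -0.016, beside 0.010 over all genes. Of 14 genes of immediate early response and isolation stress, 10 were lower in the same comparison at an unadjusted p under 0.05 and 1 passed, with a median of -0.31. Their summed linear signal was 12094 to 13270 in FAD DKO, 14550 to 16475 in FAD and 15063 to 16289 in wild type, and their part in the members' differences was not tested.

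FAD DKO against wild type combines both steps. Here too the choice of members with earlier results known leaves the counts descriptive. In limma 2 of 10 members passed, Egln3 and Flt1, where 0.14% of all genes did (0.0947% upward), and 4 had an unadjusted p under 0.05, all higher (8.14% of all genes, 3.95% higher and 4.19% lower). Without overlap above wild type stood 5 of 10 members (5.77% of all genes), these 4 and Egln2, and 0 stood below (6.15% of all genes, 11.9% either way). The median over the members was 0.084, beside 0.0041 over all genes. Of the 14 immediate early and isolation stress genes, 13 lay below 0 in this comparison as well, with a median of -0.33. At an unadjusted p under 0.05 9 were lower (4.19% of all genes were), and 1 passed. Their part in the members' differences was not tested here either. Both calls were lost without wild type replicate 2 (adjusted p = 0.0602 for Egln3 and 0.0788 for Flt1), without FAD DKO replicate 1 (0.0511 for Egln3, 0.0511 for Flt1) and without FAD DKO replicate 3 (0.058 and 0.0667), while the differences stayed between 1.64 and 1.85 for Egln3 and between 1.21 and 1.32 for Flt1 over the 9 fits with 1 array left out. The 3 comparisons share arrays, so their values for a member are not independent of each other.

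Since Flt1 marks endothelium as well as macrophages, endothelial markers were read beside it. The tight junction gene Cldn5, the adhesion gene Cdh5 and Kdr, the gene of VEGF receptor 2, overlapped between all genotypes. In FAD DKO against wild type they gave 0.045, -0.023 and -0.021. Pecam1, which myeloid cells also express, was lower in FAD DKO than in wild type without overlap, at -0.45 (limma adjusted p = 0.219). Over 16 measured endothelial genes the summed linear signal was 1150 to 1198 for wild type, 1218 to 1242 for FAD and 1310 to 1380 for FAD DKO, the same order as Flt1. The glucose transporter Slc2a1, a HIF target, is also on this list. Without it the sum over 15 genes was 821 to 852, 651 to 804 and 809 to 897. Eng, the brightest of these 15, weighs most in that sum. Its log2 means were 8.52 for wild type, 8.09 for FAD and 8.68 for FAD DKO. Of the 16 genes, 5 lay above 0 and 11 below in FAD against wild type (median -0.086). At an unadjusted p under 0.05 1 was higher and 5 lower there (4.41% and 4.02% of all genes). In FAD DKO against FAD 11 lay above and 5 below (median 0.040), and in FAD DKO against wild type 9 above and 7 below (median 0.013).

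**Figure D3:**
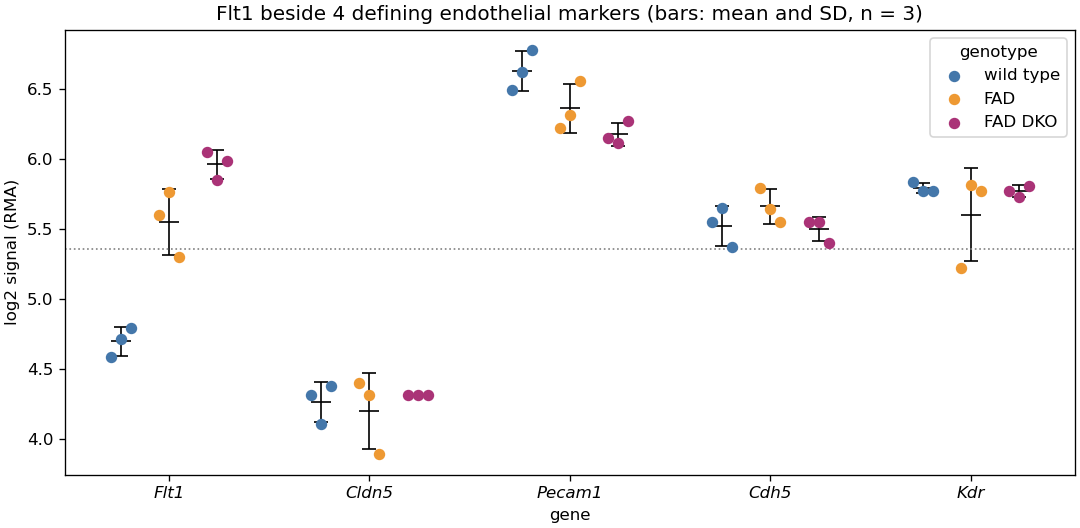
Deposited log2 signal of Flt1 beside the endothelial markers Cldn5, Pecam1, Cdh5 and Kdr on every array (vertical axis), by genotype. Points are arrays, black bars the mean and SD of 3 arrays, and the dotted line the median of all probe sets. Flt1 steps up from 4.70 to 5.55 to 5.96, while Cldn5, Cdh5 and Kdr overlap between genotypes and the mean of Pecam1 is highest in wild type, at 6.63.

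Monocytes express Flt1 too. The summed signal of 14 monocyte and neutrophil genes was 3088 to 4858 for wild type, 4547 to 4692 for FAD and 2330 to 7134 for FAD DKO. In FAD against wild type 12 of the 14 lay above 0, with a median of 0.19, in FAD DKO against FAD 4 (median -0.18) and in FAD DKO against wild type 8 (median 0.024). Ccr2, the chemokine receptor of classical monocytes, gave 6.76, 6.88 and 6.80 on wild type arrays, 7.24, 7.39 and 6.95 on FAD arrays and 6.95, 7.69 and 6.80 on FAD DKO arrays. Like Flt1 it was higher in FAD than in wild type without overlap, by 0.38 (limma adjusted p = 0.676). Its FAD DKO arrays overlapped both other genotypes. Ly6c2, S100a8 and S100a9, the other defining markers of these cells, were at 0.42, 0.24 and 0.34 in FAD against wild type, all with overlap. On FAD DKO arrays S100a8 read 8.63, 11.39 and 10.58, where Flt1 read 6.05, 5.85 and 5.99. The part of these cells in the Flt1 differences was not tested. In bulk samples a smaller number of cells of a type and less RNA per cell cannot be told apart.

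The other genes of the pathway were read from lists of HIF machinery, VEGF ligands and receptors, and hypoxia response targets, chosen with earlier results of these data known. In limma 0 of the measured genes on these lists passed in any of the 3 comparisons, and the number with an unadjusted p under 0.05 is given for each list. The exceptions among the alternatives were hypoxia targets: with a trended and robust variance 2 passed in FAD against wild type and 2 in FAD DKO against wild type, and with probe sets below the median of all left out 1 and 2 did.

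In the HIF machinery, 13 of 15 listed genes were measured, and the lowest p-values were those of Cited2 and Limd1 in FAD DKO. Cited2, which competes with HIF-1 alpha for its coactivators, gave 8.27, 8.38 and 8.22 on wild type arrays, 8.48, 8.32 and 8.37 on FAD arrays and 8.03, 7.84 and 7.89 on FAD DKO arrays. Every FAD DKO array was below every other array, by -0.47 on average against FAD (SE 0.0805, adjusted p = 0.212) and -0.37 against wild type (adjusted p = 0.163). Limd1, a scaffold that joins EGLN enzymes to VHL, lay the other way, 0.46 higher in FAD DKO than in FAD (SE 0.105, adjusted p = 0.287) and 0.39 higher than in wild type (adjusted p = 0.312). Hif1an, the asparaginyl hydroxylase that blocks HIF from its coactivators, was at -0.30 against FAD (adjusted p = 0.535) with a level near the median of all probe sets. In FAD against wild type Arnt2, a close relative of Arnt known from neurons, was at 0.46 with overlap (SE 0.199, adjusted p = 0.592). Crebbp had the lowest p-value of the list in that comparison and was lower without overlap, at -0.15 (limma adjusted p = 0.584). P4htm was at -0.18 with overlap (adjusted p = 0.592). At an unadjusted p under 0.05 stood 1 gene higher and 2 lower in FAD against wild type (4.41% and 4.02% of all genes). The counts were 1 and 2 in FAD DKO against FAD (3.69% and 4.41%), and 2 and 2 in FAD DKO against wild type (3.95% and 4.19%). The list medians were 0.017, -0.019 and -0.037 in that order.

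Among the 8 other VEGF ligands and receptors, Nrp1, the neuropilin that acts as a VEGF coreceptor, had the lowest p-value against wild type. Its wild type arrays read 8.36, 8.03 and 7.95, its FAD arrays 8.55, 8.64 and 8.57, and its FAD DKO arrays 8.39, 8.40 and 8.51. Both FAD genotypes lay above wild type without overlap, by 0.48 for FAD (SE 0.104, adjusted p = 0.248) and 0.32 for FAD DKO (adjusted p = 0.427). Vegfc, the lymphatic ligand, was at -0.28 in FAD DKO against wild type (adjusted p = 0.546), and Pgf, a ligand of Flt1, at -0.07 (adjusted p = 0.957). The list medians were -0.18, 0.028 and -0.038 for FAD against wild type, FAD DKO against FAD and FAD DKO against wild type. Unadjusted p-values under 0.05 numbered 1, 0 and 2, where 8.43%, 8.1% and 8.14% of all genes had one. The first was higher, and of the last 2, 1 was higher (Nrp1) and 1 lower (Vegfc). With probe sets below the median of all left out, 4 of these genes remain, and the first and last medians turned to 0.20 and 0.092.

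The hypoxia response targets were mostly of glycolysis, glucose uptake and matrix formation, with 40 of 46 listed genes measured. In FAD against wild type 10 had an unadjusted p under 0.05, all higher (4.41% of all genes were). Above wild type without overlap lay 11 (6.37% of all genes did), and below it 1, Angptl4, at -0.37 (5.46% of all genes did). Of the 40 genes, 23 lay above 0 and 17 below, the latter including Ddit4 (-0.26), Car9 (-0.15) and Adm (-0.0055). Mif, a cytokine and HIF target, was 0.59 higher (SE 0.101, adjusted p = 0.141), Slc2a1 0.58 higher (SE 0.0997, adjusted p = 0.141) and Pgk1, a glycolytic kinase, 0.46 higher (adjusted p = 0.194). Slc2a1 gave 8.43, 8.40 and 8.36 on wild type arrays, 9.15, 9.01 and 8.77 on FAD arrays and 8.83, 8.92 and 9.03 on FAD DKO arrays, so both FAD genotypes lay above wild type and overlapped each other, as for Hif1a and Bnip3.

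In FAD DKO against wild type 7 of these targets had an unadjusted p under 0.05, again all higher (3.95% of all genes were), among them Mif (0.57, adjusted p = 0.0829), Slc2a1 (0.53, adjusted p = 0.105) and Bhlhe40, a hypoxia-induced repressor (0.93, adjusted p = 0.179). In FAD DKO against FAD there was 1, the transferrin receptor Tfrc, at -0.43 (adjusted p = 0.434), where 4.41% of all genes were lower. The medians of the list were 0.054, 0.048 and -0.032 for FAD against wild type, FAD DKO against wild type and FAD DKO against FAD. Above 0 lay 23, 25 and 15 of the 40 genes in the same order, and the rest lay below.

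**Figure D4:**
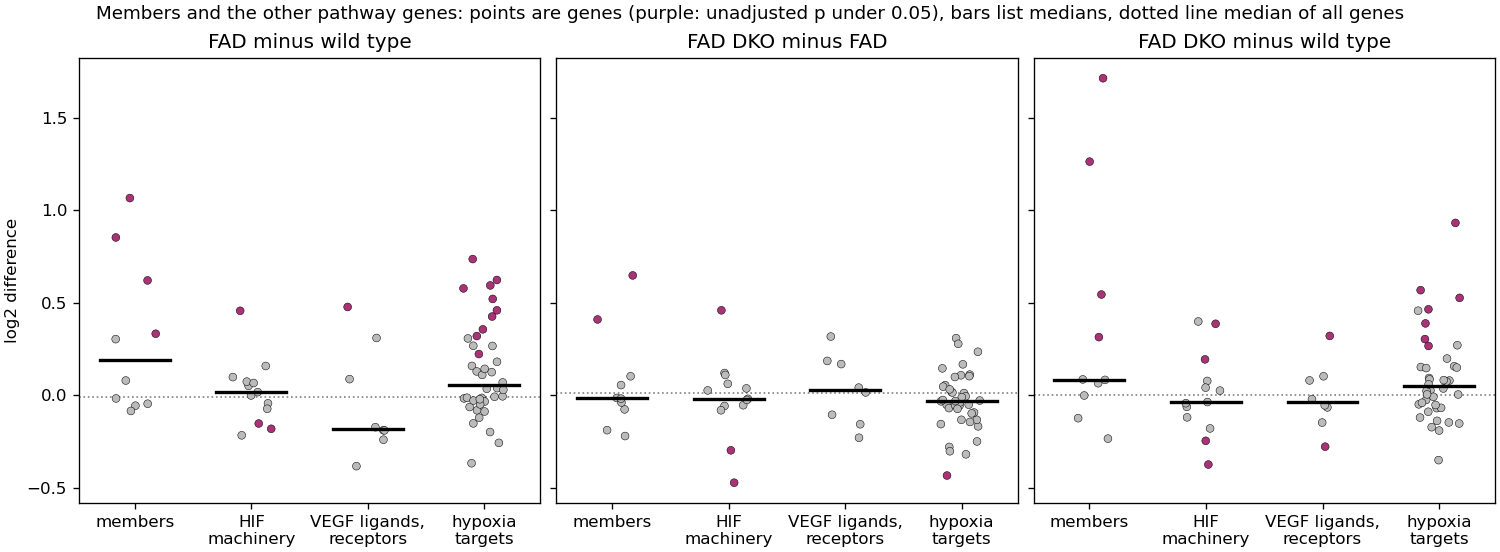
Log2 differences (vertical axis) of the 10 members and of the genes of the 3 other lists in each comparison. Points are genes, purple where the unadjusted p was under 0.05, bars the median of a list and the dotted line the median of all genes. Egln3 and Flt1 are the highest points among members in each panel, and the hypoxia targets with purple points lie above 0 in both comparisons with wild type.

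The genes whose profile over the 9 arrays lay closest to that of a member were found by the root mean square distance between values centred on each gene's mean. For Flt1 they were Apoe (0.217), ND3 (0.217), Tnfsf8 (0.224), Etl4 (0.224) and Egln3 (0.225). Apoe, the lipid carrier raised in plaque-associated microglia, had log2 means of 5.57 for wild type, 6.55 for FAD and 7.00 for FAD DKO. For Hif1a the closest were Clec2h (0.0874), Mif (0.093), Aplp2 (0.112), Plekhh2 (0.112) and Cacna1a (0.118). For Egln3, added after its values were seen, they were Ank (0.189), Ch25h (0.211), Flt1 (0.225), Apoe (0.231) and Ccl6 (0.297). Egln3 and Flt1 were thus on each other's list of 5. Hif1a was on neither, but ranked 42 for Flt1 and 65 for Egln3 among the 18231 genes compared. Ranked from Hif1a, Flt1 stood at 7875 and Egln3 at 17641. The distance favours genes of like amplitude, and the arrays share their group structure.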

How the data were processed

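The authors deposited 1 table of log2 signals for 41345 probe sets on 9 arrays, a unit read from the values; the submitters' processing notes name RMA. The RNA was amplified and biotin-labelled, per the labels' protocols. Software and version of RMA: not given in the sources used here. No detection call entered the fit. Probe set names came from the platform annotation: 23521 probe sets have 1 symbol, 1814 several and 16010 none. Of the single symbols 23328 matched RefSeq by gene identifier (GRCm38.p6). The brightest probe set stood for a gene, which left 22180 genes. Of 178 list entries 166 were measured, and older symbols were matched through RefSeq synonyms.

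The test was limma's (version 3.58.1, lmFit and eBayes, under R 4.3.3), fitted once to the 9 arrays with 1 mean for each genotype and 6 residual degrees of freedom. P-values are two-sided, adjusted by Benjamini-Hochberg over all genes, and called at an adjusted p under 0.05. The fit was tested on simulated data. All members are named, and some of the 4 or fewer genes with the lowest p per list and comparison. So are the 5 genes closest to Flt1, Hif1a and Egln3. The members and lists were chosen with earlier results of these data known. Alternatives were a low-signal filter, quantile normalization, a trended robust variance, array weights, a fit to only the 2 groups compared, every probe set, averaged probe sets of a gene, the replicate number as a block, and each array left out. Figures used matplotlib 3.10.9.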

Additional observations from a re-analysis of the deposited data

How the results depend on the processing

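The counts of members called were 0 for FAD against wild type, 0 for FAD DKO against FAD and 2 for FAD DKO against wild type. The first was 1 with a low-signal filter, which leaves 8 members and does not test Egln3 or Epas1, 2 with a trended and robust variance, 2 with array weights and 0 to 1 with 1 array left out. The third was 1 with the low-signal filter and 0 to 2 with 1 array left out; with the same filter FAD DKO against FAD had 1 member at an unadjusted p under 0.05 in place of 2. The second remained at 0 under all 17 alternatives. The replicate number as a block gave 0, 0 and 2 members, with an adjusted p of 0.0484 for Egln3 and 0.0497 for Flt1 in FAD DKO against wild type. Same-numbered arrays had deviations from their group means that correlated between -0.0821 and 0.104, and arrays of unlike number between -0.150 and 0.0863. With 3 arrays per genotype these values cannot decide whether same-numbered samples were handled together. Of 30 member differences 23 were not reversed under any alternative, and the 7 others were at most 0.22 in size. Among the 23 is Epas1 in FAD DKO against FAD, at -0.19. Without FAD DKO replicate 3 this difference was 0 but for rounding (-1.8e-15). With quantile normalization Egln1 (0.020) and Bnip3 (0.0067) turned positive in FAD DKO against FAD, as did Arnt in FAD DKO against wild type (0.015), and Egln1 did so with array weights (0.0044). With 1 array left out, FAD against wild type ranged from -0.083 to 0.0084 for Epas1 and from -0.075 to 0.066 for Egln2. FAD DKO against FAD ranged from -0.045 to 0.026 for Egln1, from -0.051 to 0.035 for Bnip3, from -0.19 to 0.037 for Hif1a and from -0.33 to 0.00040 for Vegfa, and Arnt in FAD DKO against wild type from -0.014 to 0.0071. The cause was not tested. Over all genes the calls were 9, 5 and 31 in the order above; they were 33, 11 and 117 with the low-signal filter (11532 genes tested), 43, 12 and 124 with the trended robust variance, 22, 5 and 82 with array weights, 5, 0 and 13 with only the 2 groups compared, 10, 3 and 33 with quantile normalization, 8, 7 and 14 with every probe set and 8, 2 and 11 with the block. Signal over background was not analysed, which limits Egln3, Epas1 and Flt1 most.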

Other observations

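Exactly equal values on several arrays were common among the deposited signals. At least 2 of the 9 arrays shared a value to the last digit for 60.1% of the 22180 genes, and at least 3 for 35.6%. Among the members this held for Epas1 (5 arrays), Arnt and Vegfa (3 each), and Egln2, Egln3 and Vhl (2 each), and for Hif1a, Egln1, Flt1 and Bnip3 every array had its own value.

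A probe set annotated to both Hif1a and the pseudogene S100a11-ps was left out by the rule. Its means of 5.46 (wild type), 5.69 (FAD) and 5.62 (FAD DKO) had the same order as those of the brightest Hif1a probe set (8.61, 9.23 and 9.15).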
